A study of Mus musculus with 29 samples.

Results

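Direction-selective (DS) cells and alpha cells are retinal ganglion cells (RGCs) that differ in their light responses. The DS cells were the 8 RGCs labelled as On or On-Off direction selective (4 ON DS cells and 4 of the ON-OFF type), and they were set against the 9 RGCs labelled as alpha (2 ON alpha, 4 OFF sustained or OFF S alpha, and 3 OFF transient or OFF T alpha cells). These 17 cells were chosen by their labels from the 29 RGCs of the series, and the 12 cells of neither class were used only where stated. All came from adult C57BL/6 mouse retina and were recorded in cell-attached mode before the soma was aspirated. The cDNA of each cell was amplified for 35 PCR cycles and hybridized to 1 Affymetrix mouse genome array. Cells are named by subtype and by the number in their sample titles. No DS cell was an OFF cell and 7 of 9 alpha cells were, so class and polarity cannot be told apart except among the 4 ON DS and 2 ON alpha cells.

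DS cells fire most when an image moves in their preferred direction, because starburst amacrine cells inhibit them unequally from different sides. Alpha cells have large somata, thick fast-conducting axons and wide dendritic fields, and they express neurofilament and fast potassium channel genes. RGC firing is set by voltage-gated sodium and potassium channels, and the high firing rates and long axons of these neurons are served by mitochondrial respiration.

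The values were linear MAS5 signals, whose units are arbitrary. A gene was called detected in a cell at a signal of 3000 or more, and signals were set to a floor of 375 before log2 was taken. Each gene was read at 1 probe set, its strongest on average. Because the animal of each cell is not named, each class counts as 1 sample, and no test, p-value or standard error was made. Differences of log2 signal are medians of DS cells minus medians of alpha cells, 95% intervals of shares are exact (Clopper-Pearson) and cover counting error only, and precision is limited by the number of arrays. A gene passed the size rule when its share of cells with detection differed by at least 50 percentage points and its median log2 signals differed by at least 2 in the same direction, among genes detected in at least 3 of the 17 cells.

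The number of detected genes, which stands for library depth, ran from 1842 to 3591 (median 2968.5) in DS cells and from 1672 to 4073 (median 3015) in alpha cells. RNA of rods was not spread evenly over the classes. Of 12 rod genes with a value, the median DS cell had 2 and the median alpha cell 7, and at least 5 were detected in 3 of 8 DS cells (ON DS 1 and 3, ON-OFF DS 7) and in 6 of 9 alpha cells (all but ON alpha 12 and the OFF T cells 17 and 20). *Gnat1*, the rod transducin, had signals from 3.77 to 456392 in DS cells and from 11.3 to 739952 in alpha cells. These 9 cells are called rod-rich. Values with and without them are given for some lists only, and lists without such values can differ between the 2 sets as well. Of 16 genes of Müller glia and astrocytes the median cell of either class had 25%, with a range of 12.5% to 31.25% in DS cells and of 18.75% to 56.25% in alpha cells, and 4 alpha cells were over every DS cell. Of the 9 tested, 2 were in a larger share of DS cells and 6 in a larger share of alpha cells, and in cells that were not rod-rich the medians were 25% and 43.75%. *Aqp4*, a defining gene of these glia, was detected in 0 of 8 and 0 of 9 cells of the classes. The 9 tested members were each detected in at least 3 of the 17 cells, so *Aqp4* does not stand for the list. The part of glial RNA in the results was not tested. Of 15 genes of microglia and vessels, the median was 3.33% in DS cells and 0% in alpha cells. Of 17 pan-RGC genes, 52.9% to 88.2% were detected in DS cells and 35.3% to 76.5% in alpha cells, and *Sncg*, *Uchl1*, *Nefl* and *Nefm* were detected in all 17 cells.

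**Figure D1:**
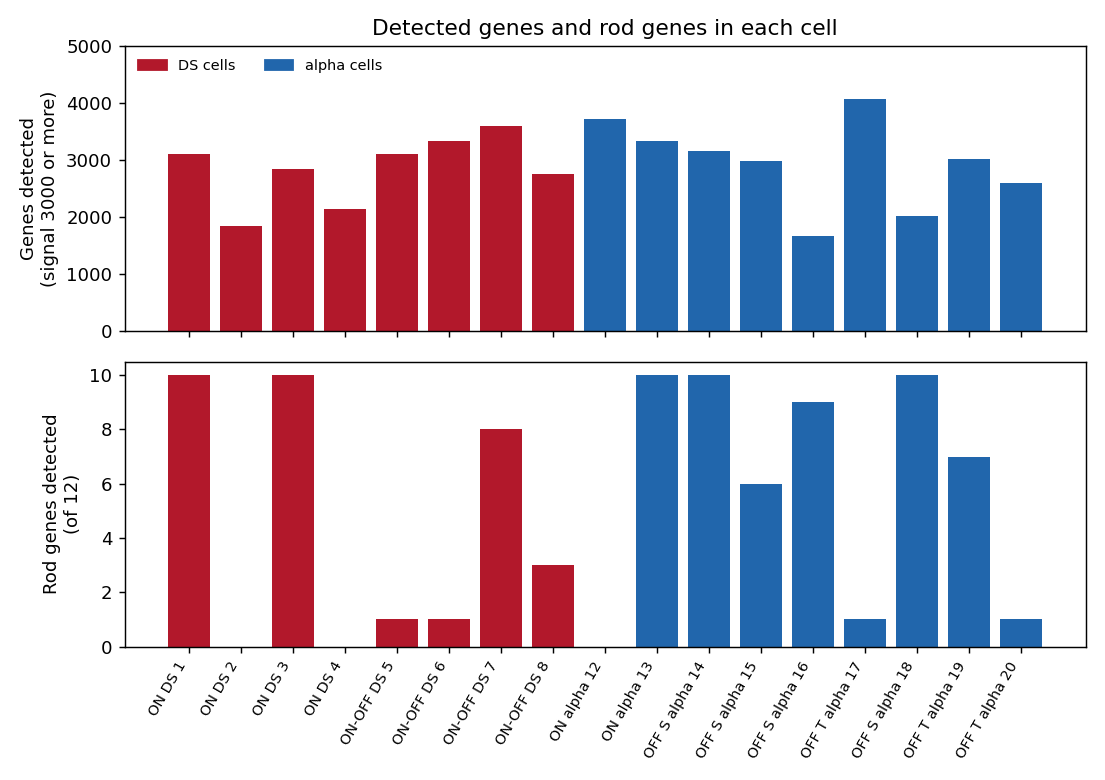
Number of genes detected (top) and number of 12 rod genes detected (bottom) in each of the 8 DS cells (red) and 9 alpha cells (blue), 1 bar per cell. Detected genes lie between 1842 and 3591 in DS cells and between 1672 and 4073 in alpha cells, and 3 DS cells and 6 alpha cells hold at least 5 rod genes.

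The class labels were first set against marker genes. *Cartpt*, which encodes the neuropeptide CART, was detected in 6 of 8 DS cells and 0 of 9 alpha cells (intervals 34.9% to 96.8% and 0% to 33.6%), with a lowest, median and highest signal of 129, 46923 and 181066 in DS cells and of 1.71, 57.7 and 2334 in alpha cells. ON DS 1 and ON-OFF DS 7 were under the threshold, so the classes overlapped. *Pcdh8*, a protocadherin, was detected in 7 of 8 DS cells and 1 of 9 alpha cells, and the alpha cell with it was OFF S alpha 15, at 4788. The other DS markers did not separate the classes: *Mmp17*, a matrix metalloprotease of ON-OFF DS cells, was detected in 3 of 8 DS cells and 3 of 9 alpha cells, and *Drd4*, the D4 dopamine receptor, in 2 of 8 and 3 of 9. *Col25a1* and *Cdh6*, markers of particular DS types, were detected in 0 of 8 and 0 of 9 and in 1 of 8 and 0 of 9 cells.

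*Nefh*, the heavy neurofilament subunit, had a lowest, median and highest signal of 10.9, 18033 and 90368 in DS cells and of 62278, 145101 and 175659 in alpha cells. All 9 alpha cells had it, and 4 DS cells (ON DS 1 and 4, ON-OFF DS 7 and 8) were also over the threshold, up to a level within the range of the alpha cells. *Kcng4*, which encodes a silent potassium channel subunit used to mark alpha cells, was detected in 1 of 8 DS cells and 5 of 9 alpha cells (both ON alpha cells and 3 of 7 OFF alpha cells) and missed the size rule. *Kcnip2*, an auxiliary subunit of Kv4 channels, was detected in 1 of 8 DS cells and 6 of 9 alpha cells, which were 6 of 7 OFF alpha cells and 0 of 2 ON alpha cells. *Tpbg* was detected in no cell of either class, *Igf1* in 1 of 8 and 2 of 9 cells, and *Spp1* had no value. Of the 5 alpha markers with a value, DS cells had a median of 20% and alpha cells of 60%, and of the 11 DS markers with a value DS cells had 18.2% and alpha cells 9.09%. Of these markers *Cartpt*, *Pcdh8*, *Nefh* and *Kcnip2* set the classes apart most, each with exceptions. The paper had already reported *Pcdh8* for DS cells and *Kcnip2* for OFF alpha cells from these same cells. These genes, and the medians of the marker lists that hold them, are therefore no independent check of the labels. At 4 markers ON DS 1 went against its label, with *Cartpt* and *Pcdh8* under the threshold and *Nefh* and *Kcng4* over it. *Cartpt* was also under the threshold in ON-OFF DS 7, and *Nefh* over it in ON DS 4 and ON-OFF DS 7 and 8. ON DS 1 was kept. Without it 74 genes passed the size rule toward DS cells and 114 toward alpha cells, against 74 and 102 with it.

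The sequence before the start of *Cartpt* is shown because this gene had the second largest difference of medians among genes past the rule toward DS cells and its promoter holds a cAMP response element, the palindrome TGACGTCA to which CREB family factors bind. The 250 bases before the start (RefSeq, GRCm38.p6, chr13:99900684-99900933, minus strand, capitals mark the element) read as follows.
Cartpt: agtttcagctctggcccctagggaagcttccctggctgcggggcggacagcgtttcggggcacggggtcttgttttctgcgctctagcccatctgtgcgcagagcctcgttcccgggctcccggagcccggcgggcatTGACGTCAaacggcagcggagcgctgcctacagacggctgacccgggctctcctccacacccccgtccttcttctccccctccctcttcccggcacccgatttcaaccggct
Promoters (250 bases before to 50 after a start) were matched by symbol for 54 of the 74 genes past the size rule toward DS cells, and 5 of them held the element on either strand (9.26%). Of 82 genes past the rule toward alpha cells with a promoter, 1 held it (1.22%), as did 4.21% of 4707 tested genes and 2.92% of 14453 genes of the array with one. The element was searched as written, on both strands. Its shorter form TGACG was in 40.7% of promoters of genes toward DS cells, 43.9% toward alpha cells and 39.8% of tested genes. In the same order TATAAA was in 11.1%, 3.66% and 7.92%, and a site of the factor NRF1 in 0%, 1.22% and 2.44%. Enrichment of the full element was not tested. The sites of the full element and 10 bases on each side are shown for comparison, with the element in capitals. Of these, 5 are from genes toward DS cells and the last is from a gene toward alpha cells.
Bend6: gctcggtgggTGACGTCAcgggctgcgg
Cartpt: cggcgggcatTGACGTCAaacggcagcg
Fahd2a: gacagcttcgTGACGTCAccatatcgcg
Wdr82: gccgccccgcTGACGTCAtcgtcccgcc
Zdbf2: gcaccttcgcTGACGTCAgagctgcagt
Ncaph2: tgggcccgccTGACGTCAtacgtgtgcg
The site began 112 bases before the start in *Cartpt* and 4 bases before it in *Ncaph2*. A match describes these letters only, and binding was not measured.

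Over all genes, the 2 classes differed little in the libraries as a whole. Of 18194 genes with a value, 5764 were detected in at least 3 of the 17 cells. The median Pearson r of log2 signals over these genes was 0.334 for pairs of DS cells (28 pairs), 0.342 for pairs of alpha cells (36 pairs) and 0.333 for pairs of 1 DS and 1 alpha cell (72 pairs). These cells share the array type and the amplification, and a DS cell was about as like an alpha cell as another DS cell. In all 8 DS cells 384 genes were detected, in all 9 alpha cells 368, and in all 17 cells 206.

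The size rule was passed by 74 genes toward DS cells (1.28% of those tested) and by 102 genes toward alpha cells (1.77%). When only the 1672 strongest genes of each cell counted as detected, which makes depth equal, 47 of 3344 genes passed toward DS cells (1.41%) and 35 toward alpha cells (1.05%), and 16 of the 74 and 19 of the 102 were among them. After quantile normalization the balance turned, with 102 genes toward DS cells and 79 toward alpha cells. Of 56 named genes past the rule, 39 had a further probe set: in 8 such a probe set also passed the limit on shares in the same direction, in 8 one was detected in at least 3 cells but none passed that limit, and in 23 none was detected in at least 3 cells. For no gene (0%) were all DS cells over all alpha cells, and for 2 (0.0347%) all alpha cells were over all DS cells. These 2, singled out after their values were seen, were *Ap3b2*, the neuronal subunit of the AP-3 coat that sorts cargo to synaptic vesicles and lysosomes (5 of 8 DS cells and 9 of 9 alpha cells; 17, 4094 and 6892 against 10360, 28730.2 and 113202 for lowest, median and highest), and *Specc1*, a cytoskeletal coiled-coil protein (0 of 8 and 7 of 9). For *Specc1* all 8 DS cells and the alpha cells without detection lay under the threshold, where signals have no reliable order. Its lack of overlap therefore rests on that order. Without OFF T alpha 17, the deepest library, 131 genes passed toward DS cells, and without OFF S alpha 16, the shallowest, 207 passed toward alpha cells.

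Among genes toward DS cells, the largest difference of medians was that of *Fxyd7*, a brain regulator of the sodium-potassium pump. Its lowest, median and highest signals were 5366, 51754 and 127300 in DS cells and 5.95, 141 and 71319 in alpha cells, a difference of 7.11 on the log2 scale. All 8 DS cells had it, and of the alpha cells only ON alpha 12 and OFF S alpha 15 did. *Hpca*, the neuronal calcium sensor hippocalcin, was likewise detected in 8 of 8 DS cells and 2 of 9 alpha cells (OFF S alpha 14 and OFF S alpha 15), with a median of 19239 against 80.6 and a difference of 5.66, but in 1 of 8 and 1 of 9 at its other probe set. Both genes were in all 8 DS cells, and OFF S alpha 15 was an exception among the alpha cells for both.

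*Camkv*, a pseudokinase of the calmodulin kinase family found in neuronal vesicles and spines, was detected in 7 of 8 and 2 of 9 cells (difference 5.99), and *Disp3*, a membrane protein with a sterol-sensing domain, in 7 of 8 and 1 of 9 (difference 5.99). *Iffo1*, an intermediate filament family protein, and *Fbxo41*, a neuronal F-box protein, were detected in 7 of 8 and 2 of 9 and in 7 of 8 and 3 of 9 cells. *Smarcal1*, a helicase that rejoins DNA strands, and *Mapk11*, the beta form of p38 kinase, were each in 6 of 8 DS cells and 2 of 9 alpha cells. *Arhgap26* was in 6 of 8 and 0 of 9, and *Sema4f*, a semaphorin of the postsynaptic side, in 7 of 8 and 3 of 9. For *Disp3* the exceptions were single cells on either side: ON-OFF DS 6 lacked *Disp3* and ON alpha 13 had it at 17051.

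Among genes toward alpha cells, *Coch*, which encodes the extracellular matrix protein cochlin, had the largest difference (-7.40). Its lowest, median and highest signals were 3.36, 28.6 and 37342 in DS cells and 82.5, 63193 and 167792 in alpha cells, and only ON DS 1 of the DS cells had it (37342) and only OFF S alpha 16 of the alpha cells lacked it. *Syt2*, a fast calcium sensor of transmitter release, was detected in 2 of 8 DS cells and 9 of 9 alpha cells, at 47.8, 192 and 46009.5 in DS cells and 19119, 47519 and 181649 in alpha cells (difference -6.99). Its 2 other probe sets were at 1 of 8 and 0 of 9 cells each, so the result rests on 1 probe set. *Calb2*, the calcium-binding protein calretinin, was in 4 of 8 and 9 of 9 cells at 10.7, 6224 and 120007 in DS cells and 69096, 139508 and 333844 in alpha cells, and the range of the alpha cells began below the highest DS cells.

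*Kcnab3*, a beta subunit of Kv1 channels, was detected in 2 of 8 and 8 of 9 cells (difference -7.02) and at another probe set in 1 of 8 and 1 of 9, and *Nrip3* in 3 of 8 and 8 of 9. *Snrpa1*, a protein of the U2 spliceosomal particle, was in 3 of 8 and 8 of 9 cells, with the same counts at 2 further probe sets, and *Golga2*, the cis-Golgi protein GM130, in 2 of 8 and 7 of 9. *Grpel1*, a nucleotide exchange factor of the mitochondrial Hsp70, was in 1 of 8 and 6 of 9, *Mfsd12*, a lysosomal transporter, in 2 of 8 and 7 of 9, and *Nbdy*, a microprotein of the decapping complex, in 1 of 8 and 6 of 9. *Eef1akmt1*, which methylates a translation elongation factor, was in 1 of 8 and 6 of 9 cells, with the same counts at 2 further probe sets. *Gnb3*, the G protein beta subunit of cones and ON bipolar cells, was in 0 of 8 and 6 of 9 cells. Among rod-rich cells it was in 0 of 3 DS cells and 5 of 6 alpha cells. The part of photoreceptor RNA in this difference was not tested. Among the 12 genes of largest difference toward alpha cells, ON DS 1 had more detected (6 of 12) than any other DS cell.

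**Figure D2:**
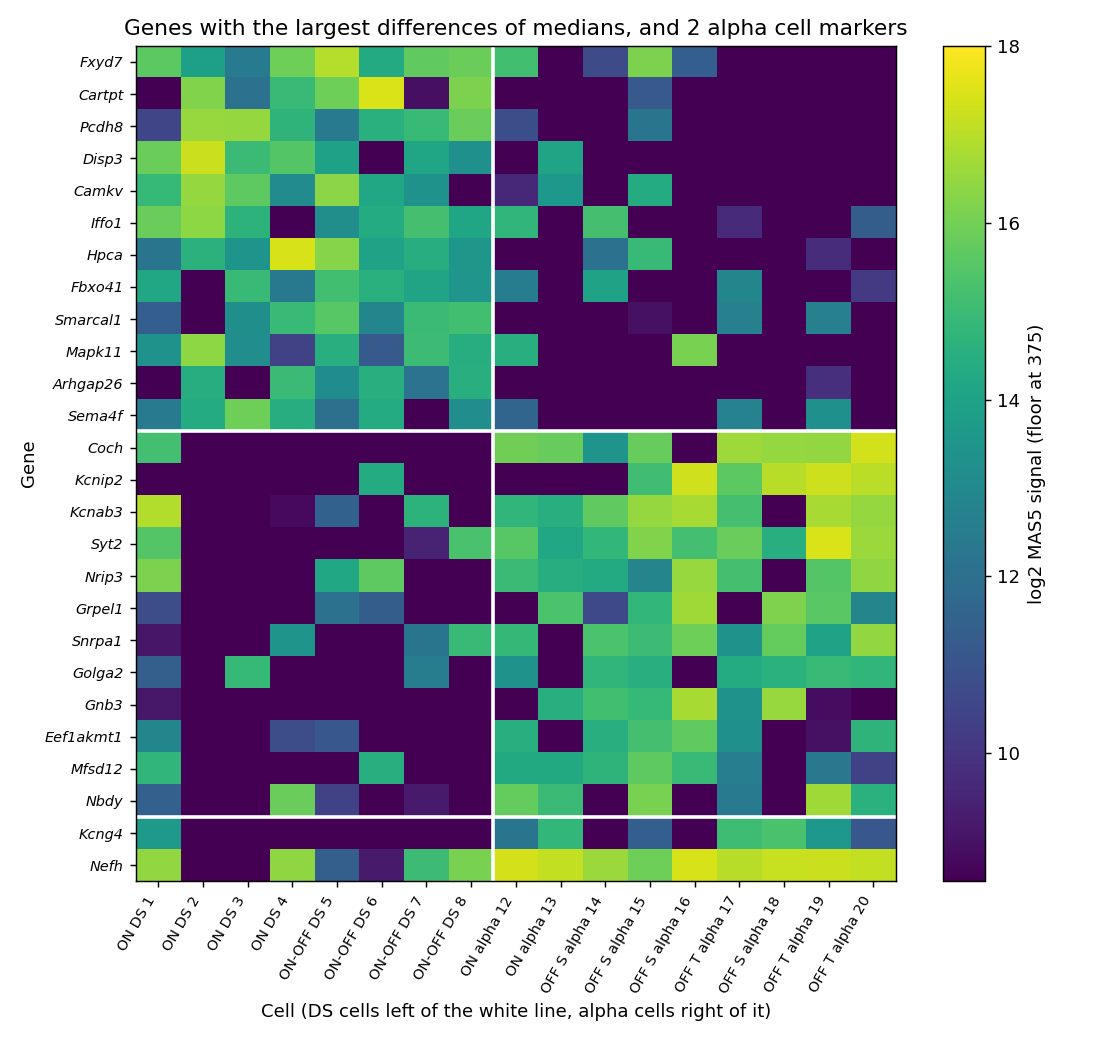
Log2 MAS5 signal (color, floor at 375) of the 12 leading genes by difference of medians toward DS cells (top), the 12 toward alpha cells (middle) and the markers *Kcng4* and *Nefh* (bottom) in each of the 8 DS cells (left of the white line) and 9 alpha cells (right of it). No row is fully dark on one side and fully bright on the other, and *Syt2* and *Nefh* are bright in all 9 alpha cells.

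The promoter of *Syt2* is shown because it alone among the genes past the rule with a promoter (54 toward DS cells and 82 toward alpha cells) held the estrogen-related receptor element TCAAGGTCA, here read on the other strand (0.234% of tested genes with a promoter held it on either strand). ERR factors are the DNA-binding partners of PGC-1alpha, whose gene *Ppargc1a* is described with the mitochondrial genes. The 250 bases before 1 of the 2 starts of *Syt2* in the table (RefSeq, GRCm38.p6, chr1:134646362-134646611, plus strand, element in capitals) were these.
Syt2: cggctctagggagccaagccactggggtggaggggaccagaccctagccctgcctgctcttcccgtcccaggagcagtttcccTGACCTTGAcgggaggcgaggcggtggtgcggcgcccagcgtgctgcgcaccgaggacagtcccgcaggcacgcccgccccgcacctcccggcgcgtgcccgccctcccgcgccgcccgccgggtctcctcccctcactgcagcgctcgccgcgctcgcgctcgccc
Whether the element is used was not measured.

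Among potassium channel genes the Kv4 family was detected more often in alpha cells and *Kcnq3* and *Kcnk3* more often in DS cells. Of 31 pore subunits of voltage-gated potassium channels, 12 were tested, 4 of them detected in a larger share of DS cells and 8 in a larger share of alpha cells, against 45.1% and 51.3% of all tested genes. *Kcnd2*, which encodes the A-type channel Kv4.2, was detected in 0 of 8 DS cells and 5 of 9 alpha cells, at 2.3, 6.84 and 2543 in DS cells and 31.1, 8840.1 and 60847 in alpha cells. The other Kv4 genes went the same way, *Kcnd1* with 2 of 8 and 4 of 9 and *Kcnd3* with 4 of 8 and 7 of 9 cells, without passing the rule. Of the Kv4 partners of the KChIP family, *Kcnip1* was in 6 of 8 and 9 of 9, *Kcnip3* in 1 of 8 and 4 of 9 and *Kcnip4* in 4 of 8 and 6 of 9, so all 4 KChIP genes and all 3 Kv4 genes were detected in a larger share of alpha cells. The Kv4 family was singled out after its values were seen.

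The fast Kv3 genes were split. *Kcnc1* (Kv3.1) was detected in 6 of 8 and 9 of 9 and *Kcnc2* (Kv3.2) in 3 of 8 and 6 of 9, but *Kcnc4* (Kv3.4) in 6 of 8 and 3 of 9, with a difference of 5.80 that passed the log2 limit and not the limit on shares. *Kcnq3*, a subunit of the M-current that damps repeated firing, was detected in 7 of 8 DS cells and 1 of 9 alpha cells, at 24.2, 8728 and 35781 in DS cells and 36.9, 681 and 4360.1 in alpha cells. ON DS 1 was the DS cell without it and ON alpha 12 the alpha cell with it. *Kcnk3*, the acid-sensitive leak channel TASK-1, was in 4 of 8 and 0 of 9 cells. *Kcnh2*, the ERG channel, was in 5 of 8 and 8 of 9. In all, of 17 auxiliary subunits of potassium channels a median of 29.4% was detected in DS cells and of 41.2% in alpha cells, and in rod-rich cells alone 47.1% and 35.3%, the other way round. Without ON DS 2, 3 or 4 or ON-OFF DS 6 the gap over all cells of the classes was -5.88 points, against -11.8 with all cells. Without ON DS 1 or ON-OFF DS 5, 7 or 8 it was -17.6 points.

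Sodium channel genes differed at single subunits. *Scn2a* (Nav1.2) had a lowest, median and highest signal of 4.27, 11602 and 71823 in DS cells and of 2.19, 23.3 and 3028 in alpha cells and was detected in 5 of 8 and 1 of 9. It was in all 4 ON-OFF DS cells and in 1 of 4 ON DS cells. *Scn3b*, the beta3 subunit, was also in 5 of 8 and 1 of 9 cells. *Scn8a* (Nav1.6), the main channel of the mature axon initial segment, was detected in 6 of 8 and 9 of 9, at a median of 37410.3 in DS cells and 60268 in alpha cells, and *Scn2b* in 5 of 8 and 5 of 9. Of the 11 sodium channel genes, DS cells had a median of 31.8% (18.2% in ON DS and 36.4% in ON-OFF DS cells) and alpha cells of 18.2%, and the ON DS cells were level with the alpha cells in median. At equal depth the gap was 4.55 points against 13.6.

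Of 24 genes named as calcium channel subunits, DS cells had a median of 20.8% and alpha cells of 12.5%, and 5 of the 8 DS cells were over every alpha cell. At equal depth both medians were 8.33%. *Cacng5* was the member past the rule (6 of 8 and 2 of 9), and it encodes a TARP, a partner of AMPA receptors rather than a part of a calcium channel. *Cacng3*, another TARP, was in 3 of 8 and 0 of 9, *Cacnb1*, a beta subunit, in 4 of 8 and 1 of 9, and *Cacna2d1* in 5 of 8 and 3 of 9. The pore subunits *Cacna1a* (P/Q type), *Cacna1b* (N type) and *Cacna1h* (T type) were in 4 of 8 and 3 of 9, 3 of 8 and 2 of 9 and 2 of 8 and 4 of 9 cells. In all, 7 of the 10 tested genes were in a larger share of DS cells and 3 in a larger share of alpha cells, which were *Cacna1h*, *Cacna1f* (2 of 8 and 3 of 9) and *Cacna2d4* (1 of 8 and 3 of 9).

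**Figure D3:**
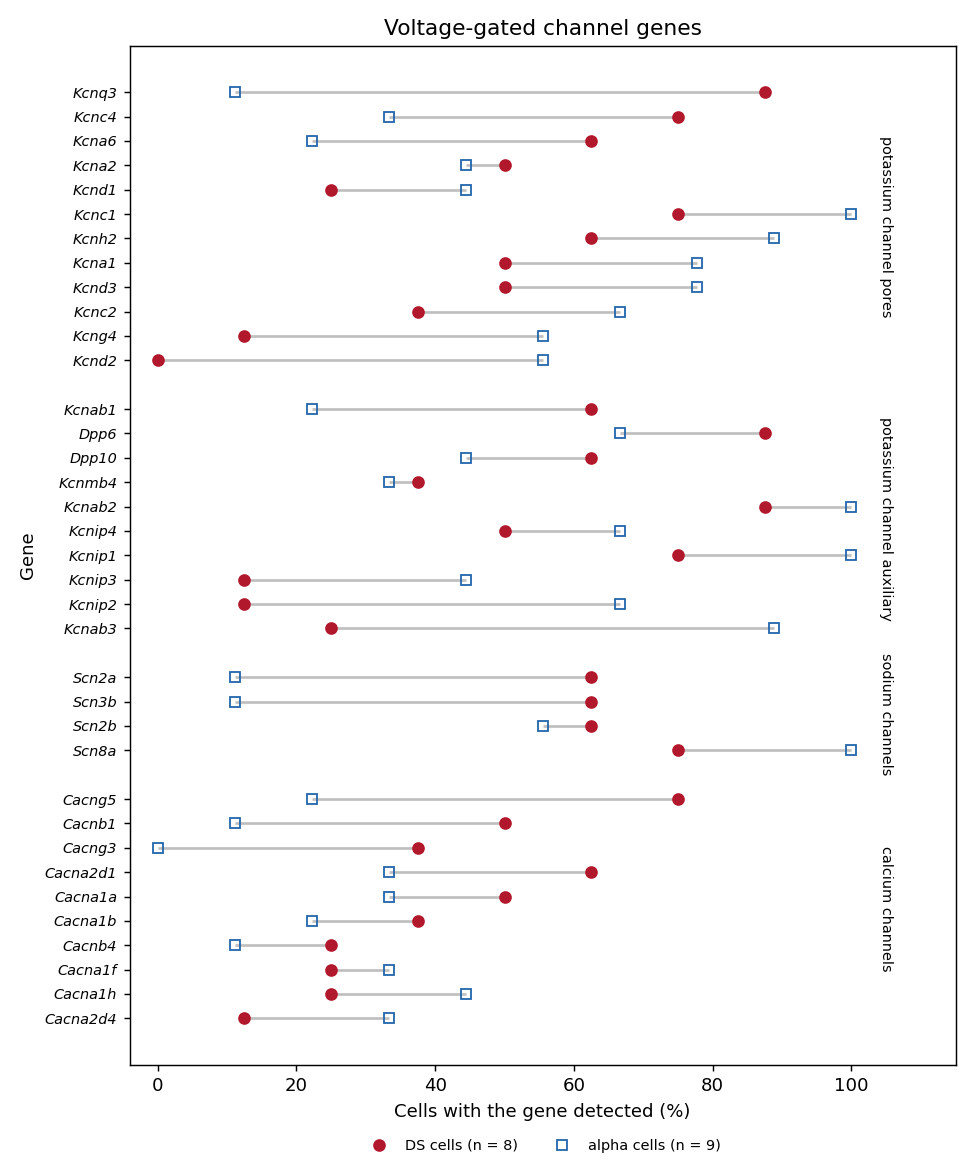
Percent of the 8 DS cells (filled red circles) and of the 9 alpha cells (open blue squares) in which each tested voltage-gated channel gene was detected, by family, ordered by the difference. *Kcnq3* lies at 7 of 8 against 1 of 9 cells and *Kcnd2* at 0 of 8 against 5 of 9.

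Genes of mitochondria were detected more often in alpha cells. Of 76 mitochondrial ribosomal protein genes, which serve the translation of the respiratory subunits encoded in mitochondria, 63 were tested, of which 21 were detected in a larger share of DS cells and 42 in a larger share of alpha cells (66.7%, against 51.3% of all tested genes). The median cell had 34.9% of them in the DS class (range 19.7% to 56.6%) and 51.3% in the alpha class (range 23.7% to 61.8%). *Mrpl45* was in 1 of 8 and 8 of 9 cells, with a median signal of 112 in DS cells and 5767 in alpha cells, and *Mrps25* in 1 of 8 and 6 of 9. No mitochondrial ribosomal gene passed the rule toward DS cells, and the strongest the other way was *Mrps24* (4 of 8 and 1 of 9).

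Depth and rod RNA were then set beside this. Relative to the percent of all genes detected in the same cell, mitochondrial ribosomal genes were detected 2.07 times as often in the median DS cell and 2.76 times in the median alpha cell, and 7 of 8 DS cells and 3 of 9 alpha cells were at or under 2.31, while ON DS 1 was at 3.31. At equal depth the median cell had 21.7% in the DS class and 25% in the alpha class, a gap of -3.29 points against -16.4. Among cells that were not rod-rich the relative values were 1.95 in 5 DS cells and 2.76 in 3 alpha cells, and among rod-rich cells 2.28 in 3 DS cells and 2.77 in 6 alpha cells. The percent detected was 27.6% against 60.5% in the cells that were not rod-rich and 42.1% against 43.4% in the rod-rich cells. ON-OFF DS 6 and ON alpha 13 had the same number of detected genes (3333) and nearly the same percent, 34.2% and 35.5%. Without ON DS 1 the gap of the class medians was -17.1 points. Without ON alpha 12, OFF S alpha 15, OFF T alpha 17 or OFF T alpha 19 it was -8.55 points and without OFF S alpha 14 -9.87 points. The part of rod RNA in the gap was not tested.

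Of 79 nuclear-encoded subunits of oxidative phosphorylation, 69 were tested, of which 7 were detected in a larger share of DS cells and 40 in a larger share of alpha cells. These were 10.1% and 58%, against 45.1% and 51.3% of all tested genes. None passed the size rule in either direction. The median difference over the 69 was -0.51 on the log2 scale. Over all tested genes it was 0, but a gene with both medians at the floor gives 0 whatever its signals. Among other often detected lists it was -0.17 for proteasome genes, -0.13 for cytosolic ribosomal proteins and 0.02 for pan-RGC genes. The median percent of the 79 detected was 75.9% in DS cells and 81% in alpha cells. *Cox5a* and *Uqcrfs1*, subunits of complexes IV and III, were each in 4 of 8 DS cells and 8 of 9 alpha cells, and *Cox8a*, another subunit of complex IV, in 0 of 8 and 4 of 9. *Ndufb2* of complex I went the other way (4 of 8 and 2 of 9). Relative to all genes of the cell the medians were 4.67 and 4.87, with 4.6 against 3.97 in the cells that were not rod-rich, the reverse order.

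Among 61 genes of mitochondrial assembly, import and biogenesis, 17 of 42 tested were in a larger share of DS cells and 25 in a larger share of alpha cells. These were 40.5% and 59.5%, against 45.1% and 51.3% of all tested genes. *Ppargc1a*, the coactivator PGC-1alpha that drives mitochondrial biogenesis, was detected in 0 of 8 DS cells and 7 of 9 alpha cells, at 1.95, 88.6 and 2429.8 in DS cells and 207, 7655 and 26227 in alpha cells. A further probe set of *Ppargc1a* gave 1 of 8 and 7 of 9 cells. The highest DS signal of *Ppargc1a* was that of ON DS 1, and OFF S alpha 18 and OFF T alpha 20 were the alpha cells without it. *Ndufaf1*, an assembly factor of complex I, was in 1 of 8 and 7 of 9 cells, the DS cell again being ON DS 1.

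**Figure D4:**
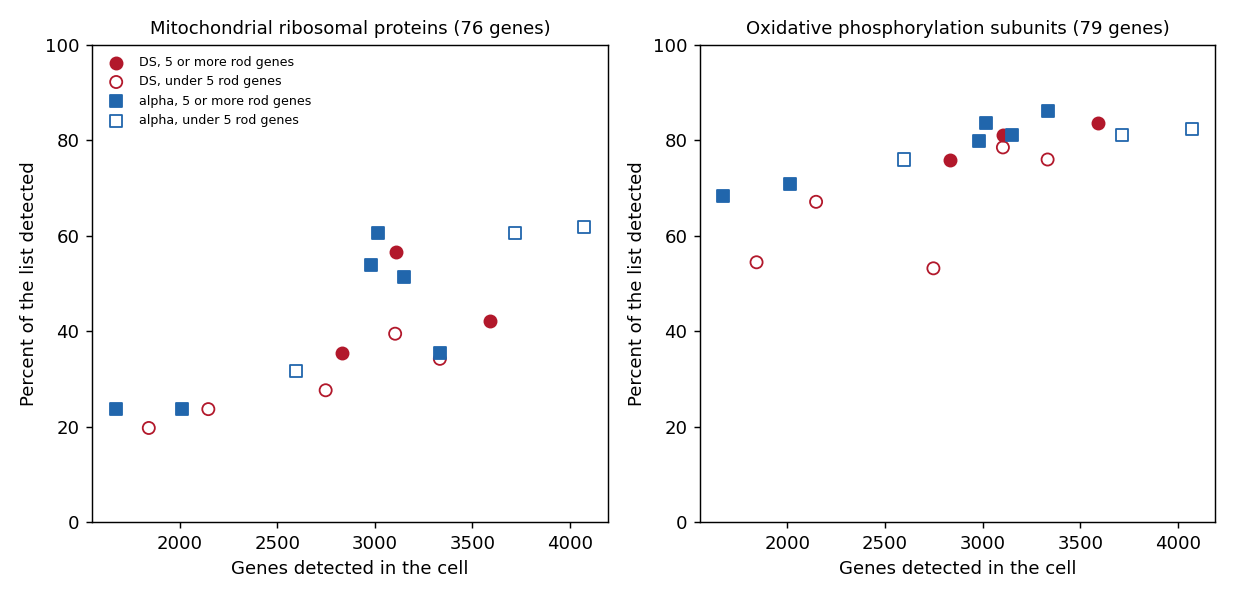
Percent of 76 mitochondrial ribosomal protein genes (left) and of 79 oxidative phosphorylation subunits (right) detected, against the number of genes detected in the same cell, for DS cells (red circles) and alpha cells (blue squares), filled where at least 5 rod genes were detected. Both percents rise with depth. Near 3000 detected genes the alpha cells OFF T alpha 19, OFF S alpha 15 and OFF S alpha 14 lie at 60.5%, 53.9% and 51.3% of the ribosomal genes, and ON DS 1 at 56.6%. The DS cells ON-OFF DS 5 (3104 detected genes) and ON DS 3 (2833) lie under all of these in the left panel.

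Among genes of protein folding and turnover, single members passed the rule toward alpha cells. Of 56 tested chaperones 16 were in a larger share of DS cells and 36 in a larger share of alpha cells (64.3%, against 51.3% of all tested genes), with medians of 35.4% and 40.4% detected, and *Dnajc9*, a histone co-chaperone, passed the rule (1 of 8 and 7 of 9). *Hspb8*, *Hspa4* and *Bag5* were in 1 of 8 and 5 of 9, 2 of 8 and 6 of 9 and 2 of 8 and 6 of 9 cells. Of 36 tested proteasome genes, 11 were in a larger share of DS cells and 20 in a larger share of alpha cells (55.6%, near the share of all tested genes), and *Psmd11*, a lid subunit, passed the rule (1 of 8 and 7 of 9, with 1 of 8 and 6 of 9 at another probe set). Of 29 genes that build GPI membrane anchors, the median was 20.7% in DS cells and 31% in alpha cells. *Pigo*, an ethanolamine phosphate transferase of that pathway, was in 0 of 8 DS cells and 7 of 9 alpha cells, at 4.22, 26.9 and 109 in DS cells and 80.6, 10302 and 76403 in alpha cells, and in 0 of 8 and 6 of 9 at each of 2 further probe sets. The paper had already reported *Pigo* as a marker of alpha cells from these same cells, so the counts of *Pigo* are no independent evidence. In rod-rich cells alone the order of the GPI medians turned (27.6% and 24.1%). The gap of -10.3 points was -17.2 points without ON DS 1 or ON-OFF DS 5, 6 or 7 and -3.45 points without ON DS 2, 3 or 4 or ON-OFF DS 8.

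In some other lists more genes were detected in a larger share of DS cells, which held for 45.1% of all tested genes. Of 19 tested genes of sterol and fatty acid synthesis, 15 were in a larger share of DS cells and 4 in a larger share of alpha cells, none past the rule. *Sqle* and *Mvd*, enzymes of cholesterol synthesis, were in 6 of 8 and 4 of 9 and 4 of 8 and 1 of 9 cells, *Sc5d*, a late enzyme of the same route, in 3 of 8 and 0 of 9, and *Acaca*, which starts fatty acid synthesis, in 5 of 8 and 3 of 9. The median cell had 52% in the DS class and 40% in the alpha class. ON DS 4 and the ON-OFF DS cells 5, 6 and 7 had 64% to 68% and the other DS cells 16% to 40%, against 12% to 48% in alpha cells, and without any 1 of those 4 cells the medians did not differ (0 points), while without any 1 of the other 4 DS cells they differed by 24 points.

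Of 21 tested adhesion genes of the immunoglobulin superfamily, 15 were in a larger share of DS cells and 5 in a larger share of alpha cells, with medians of 30.6% and 24.5%. *Cntn6*, a contactin of axons and synapses, was in 4 of 8 DS cells and 0 of 9 alpha cells (ON DS 4 and 3 ON-OFF DS cells) and *Cntn2* in 5 of 8 and 3 of 9. The exception that passed the rule was *Nptn*, which encodes neuroplastin, a partner of the plasma membrane calcium pump (3 of 8 and 8 of 9, toward alpha cells). Among cadherins, *Pcdh10* was in 4 of 8 and 0 of 9 cells besides *Pcdh8*. Of 8 tested regulators of G protein signalling, 7 were in a larger share of DS cells, among them *Rgs7* (8 of 8 and 5 of 9) and *Rgs8* (5 of 8 and 4 of 9), and *Rgs3* was the exception (2 of 8 and 3 of 9). Of 54 tested spliceosome and RNA-binding genes, 35 were in a larger share of DS cells and 19 in a larger share of alpha cells, and 2 passed the rule each way, *Srsf2* and *Celf4* toward DS cells and *Snrpa1* and *U2af1l4* toward alpha cells. The medians of this list were 29.4% in DS cells and 27.1% in alpha cells, did not differ (0 points) without OFF S alpha 15, 16 or 18 or OFF T alpha 20, and were 28.2% and 38.8% in cells that were not rod-rich, the other way round.

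Axonal and cytoskeletal genes gave single genes rather than a shift. *Gap43*, a growth cone protein that adult neurons keep at low level, was detected in 8 of 8 DS cells and 3 of 9 alpha cells, at 3897, 12319 and 44100.2 in DS cells and 14.2, 201 and 56927 in alpha cells, and the highest value of all was in the alpha cell OFF S alpha 16. At equal depth it was in 2 of 8 and 1 of 9 cells, since it lay under the strongest genes of most cells. *Gsn*, the actin-severing protein gelsolin, was in 4 of 8 DS cells and 0 of 9 alpha cells, which were all 4 ON-OFF DS cells, and in 4 of 8 and 0 of 9 at each of 3 further probe sets. Of the matrix genes, *Mmp24*, a membrane-bound metalloprotease, was in 8 of 8 and 4 of 9 cells and its inhibitor relative *Timp2* in 6 of 8 and 1 of 9, but in 1 of 8 and at most 1 of 9 at each of its 5 other probe sets. *Hdac6*, the tubulin deacetylase, was in 7 of 8 and 3 of 9.

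At the synapse, 57 genes of vesicles and SNAREs were tested and 26 were in a larger share of DS cells and 24 in a larger share of alpha cells, close to the share of all genes. *Rims3*, an active zone protein, passed toward DS cells (7 of 8 and 1 of 9) and *Syt2* and *Vamp4*, a SNARE of endosomes, toward alpha cells (*Vamp4* 1 of 8 and 7 of 9, but 2 of 8 and 2 of 9 and 0 of 8 and 2 of 9 at its other probe sets). *Dlgap4*, a postsynaptic scaffold, was in 5 of 8 and 1 of 9 at its main probe set and in 3 of 8 and 4 of 9 at another. Of calcium-binding proteins, *Calb1*, calbindin, was in 7 of 8 DS cells and 4 of 9 alpha cells, at 59.9, 70723 and 148187 in DS cells and 18, 294 and 67905 in alpha cells. Its difference of medians (7.43) was over that of every gene past the rule, but the shares differed by less than the rule asks. *Calb1* was in 4 of 4 ON DS cells, in 3 of 4 ON-OFF DS cells, in both ON alpha cells and in 2 of 7 OFF alpha cells.

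Ribosomal proteins of the cytosol had the same median percent detected over all cells of each class (69.4% in both). Of the 37 tested, 6 were in a larger share of DS cells (16.2%, against 45.1% of all tested genes). In a larger share of alpha cells were 20 (54.1%, near the 51.3% of all tested genes). In cells that were not rod-rich the medians were 55.1% in DS cells and 69.4% in alpha cells, and in rod-rich cells 71.4% in both. OFF S alpha 16 and OFF S alpha 18, the shallowest alpha libraries, had 7.77 and 6.46 times the percent of all genes, and no other cell was over 4.84.

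**Figure D5:**
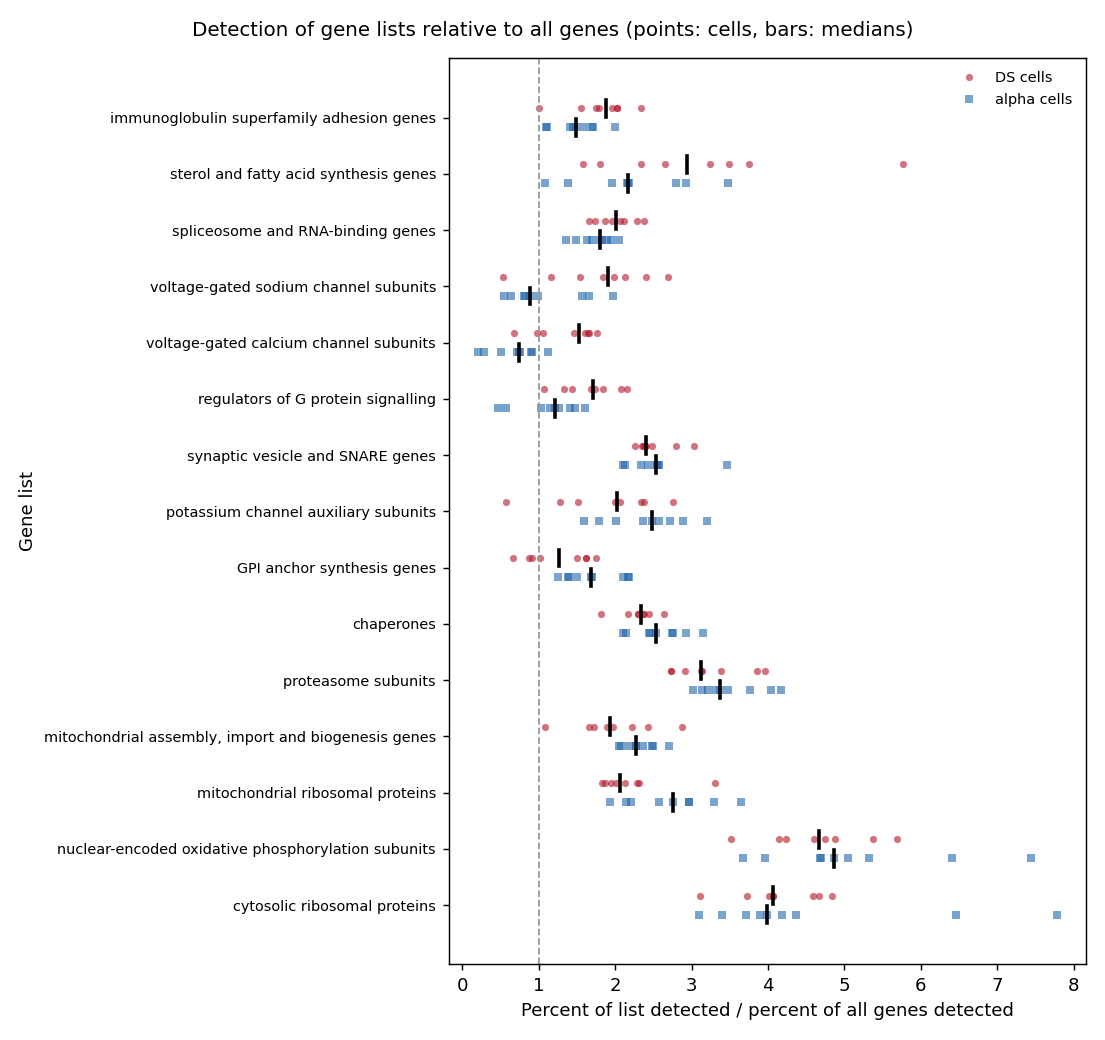
Percent of each gene list detected divided by the percent of all genes detected in the same cell, for DS cells (red circles, upper row of each list) and alpha cells (blue squares, lower row), with the class median as a black bar and 1 (as often as all genes) as a dashed line. The cells of the 2 classes overlap in all 15 lists, and the medians of the mitochondrial ribosomal genes are 2.07 in DS cells and 2.76 in alpha cells.

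The 12 cells of neither class, which took no part in the rule, showed how far these genes went beyond the 2 classes. They had a median of 35.1% of the 74 genes toward DS cells (range 5.41% to 51.4%) and of 40.2% of the 102 genes toward alpha cells (range 17.6% to 57.8%), against 41.2% of all tested genes. In 3 of them, J-RGC 11, EyeWire 6sn 22 and SbC 25, the percent of the genes toward DS cells was the higher, and in 9 that toward alpha cells. Of the 74 genes 3, and of the 102 genes 2, were in none of the 12 cells, so nearly all were detected in other RGC subtypes as well. The same share over all tested genes was not worked out, so these counts do not set the genes apart from other genes. *Kcnk3* and *Kcnip2* were in 0 of the 12 cells, *Disp3*, *Gsn* and *Pigo* in 1, *Cartpt* in 4, *Cacng5* and *Gnb3* in 9 and *Calb2* in 11.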

How the data were processed

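The libraries of 8 DS and 9 alpha RGCs were compared, 1 array per cell. The authors deposited linear MAS5 intensity values of 45101 probe sets (version not given in the sources used here), scaled so that the 2% trimmed mean was 1500 on every array. MAS5 subtracts mismatch signal, and low values therefore have no reliable order. Probe sets of 1 gene (34958) gave 18194 genes. Detection was set at 2 trimmed means (3000) and the floor for log2 at 375, and the probe set of highest mean log2 over 29 cells stood for its gene. Depth per cell is the number of detected genes.

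The members and the 57 gene lists were chosen with earlier results of these data known. Named genes are the 12 of each direction with the largest difference of medians past the size rule, *Cartpt*, *Pcdh8*, *Nefh*, *Kcng4*, and up to 6 members past the rule per list and direction. Any other gene given with values was chosen after its values were seen. Results of lists not named in the text are not reported here. Nothing was tested, because no animal is named and each class therefore counts as 1 sample. Alternatives were other thresholds (1500 and 6000), floors, quantile normalization, equal depth, depth as a covariate, means, any probe set, no filter, and subsets of cells. The procedure was tested on simulated data. Promoters came from RefSeq (GRCm38.p6). Software was pandas 2.3.3 with numpy 2.4.6 under Python 3.11.15, scipy 1.17.1 for intervals and matplotlib 3.10.9 for plots.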

Additional observations from a re-analysis of the deposited data

Results flagged for a closer look

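Within the alpha class, 4 values lay apart from the other 8 cells by more than Dixon's limit, out of 117 groups of values looked at, and chance flags about 1 in 20 groups. OFF T alpha 20 had 53.1% of the cytosolic ribosomal protein genes detected, against 65.3% to 75.5% in the other alpha cells. OFF S alpha 16, the shallowest of the 17 libraries, had 14.3% of the ubiquitin-conjugating enzymes, against 32.1% to 50% in the other alpha cells, and 30.6% of the lysosome and proton pump genes, against 44.9% to 53.1%. ON alpha 13 had 18.2% of the markers of DS cells, which is 2 of 11 genes, against 0% to 9.09% in the other alpha cells.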

How the results depend on the processing

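Nothing was tested, so the counts below describe size only. The number of genes past the size rule was 74 toward DS cells and 102 toward alpha cells. It was 66 toward alpha cells at a threshold of 6000, 47 toward DS cells with a floor of 1500, 102 toward DS cells and 79 toward alpha cells after quantile normalization, and 47 toward DS cells and 35 toward alpha cells at equal depth. Small sets of cells let more genes pass. Without the rod-rich cells (5 DS and 3 alpha cells) the counts were 125 toward DS cells and 386 toward alpha cells, in ON cells only (4 and 2 cells) 147 and 701, and in the rod-rich cells only (3 and 6 cells, an alternative chosen after seeing the data) 562 and 220. Leaving out 1 cell at a time gave 52 to 131 genes toward DS cells and 78 to 207 toward alpha cells. The counts moved by over 1.5 times without OFF T alpha 17 (131 toward DS cells) and, toward alpha cells, without OFF S alpha 14 (158), 15 (155), 16 (207) or 18 (199) or without OFF T alpha 20 (171).

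The differences of median percent detected, DS minus alpha, moved by more than the spread within classes as follows. At equal depth they were -20 points for the alpha markers (the same at a threshold of 6000, against -40), 4.55 for sodium channels, 0 for calcium channels and -1.72 for GPI genes (against -10.3). Without the rod-rich cells they were 0 for rod genes (against -41.7), -24.6 for mitochondrial assembly (against -8.20) and -32.9 for mitochondrial ribosomal genes (against -16.4). In the rod-rich cells only they were 4.17 for rod genes, 11.8 for auxiliary potassium channel subunits, 0 for sodium channels, 3.45 for GPI genes and -1.32 for mitochondrial ribosomal genes. In ON cells only they were 0 for rod genes and sodium channels, -16.1 for potassium channel pores, -6.12 for immunoglobulin superfamily genes, -17.4 for chaperones, -22.4 for GPI genes and -8 for sterol and fatty acid genes. *Pigk* reversed, to a difference of 0.95, when the highest of its probe sets was taken in each cell. The cause was not tested. No paired analysis was possible because the cell numbers in the labels are unique and pair no DS cell with an alpha cell. Signals under the threshold have no order, and a gene without detection is not shown to be absent.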
